A study of Mus musculus with 4 samples.

Results

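The 9 genes described here, Asxl1, Jak2, Trp53, Ppm1d, Srsf2, Sf3b1, U2af1, Cbl and Runx1, are genes other than Tet2 whose mutations drive clonal haematopoiesis in people. They were chosen by name, though with earlier results of these data known. They are 9 of the 18695 genes counted in single bone marrow cells of mice with and without Tet2. None of the 9 was targeted in these mice, so each value is taken as the level of an unmutated transcript, though their sequence was not examined.

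RNA was counted as unique molecular identifiers (UMIs), 1 for each captured transcript, in droplets that tag transcripts near their 3′ end. Tet2 KO cells came from 1 Mx1-Cre Tet2 fl/fl mouse and control cells from 1 Tet2 fl/fl littermate without Mx1-Cre. Each mouse gave 2 sorts, namely granulocyte-monocyte progenitors (GMP sort: Lin- cKit+ Sca1- CD34+ CD16/32+) and a mix of Lin- progenitors and CD11b+ myeloid cells (Lin-/CD11b+ sort). Both genotypes received pI:pC, 4 times at 12.5 ug/g, a mimic of double-stranded RNA that raises interferon, so all 4 libraries share this treatment. Mx1-Cre is switched on by interferon and is not restricted to blood cells, and the methods describe young adult mice of both sexes. The GMP sort gave 1258 control cells with 22890469 UMIs and 2719 Tet2 KO cells with 42561110 UMIs, and the Lin-/CD11b+ sort gave 1924 control cells with 22681380 UMIs and 3068 Tet2 KO cells with 34024599 UMIs. Median depth per cell was 18713 and 15488 UMIs in the GMP sort and 11091.5 and 10417 UMIs in the Lin-/CD11b+ sort, control first.

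Clonal haematopoiesis is the outgrowth of blood cells that descend from 1 mutated stem cell. The genes it recurs in act in a few processes: chromatin marking and DNA demethylation, cytokine signalling, the p53 response to DNA damage, splicing of transcripts, and transcription factors of blood lineages. Gain-of-function, loss-of-function and altered-function mutations all occur among them, so the transcript level of an unmutated gene is not a measure of its role in the disease.

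Levels are UMIs of a gene scaled to the summed UMIs of a type in 1 library (CPM), and carry Poisson intervals, exact at 95%. The share of cells with a UMI is at an equal depth of 5000 UMIs a cell, reached by random thinning, with exact binomial intervals, and Tet2 KO over control ratios of CPM are on the log2 scale with conditional binomial intervals. These intervals cover counting error only. With 1 mouse per genotype, a difference between genotypes has no replicate check and cannot be told apart from a difference between 2 mice or 2 preparations, and the 2 sorts of a genotype are not separate animals.

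Tet2 transcripts were counted at 13.02 CPM in control and 17.0 CPM in Tet2 KO cells of the GMP sort, and at 13.4 and 20.7 CPM in the Lin-/CD11b+ sort. A UMI at the 3′ end may fall outside the part of Tet2 that Cre removes, so these values check nothing about the labels. Of 8932 cell barcodes, 37 occurred in 2 libraries and none in more.

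Cells were assigned to 11 types by marker genes that include none of the 9. Stem and early progenitor cells (HSPC) numbered 83 and 78 in the GMP sort and 188 and 471 in the Lin-/CD11b+ sort, control first. Mono-biased GMPs numbered 434, 929, 240 and 276, and neutro-biased GMPs 386, 1019, 183 and 206, in the same order of libraries. Basophil or mast cell progenitors numbered 75, 88, 53 and 71. The Lin-/CD11b+ sort also held 357 and 662 monocytes, 144 and 150 neutrophils, 80 and 75 plasmacytoid dendritic cells (DCs), and 146 and 149 plasma cells. Classical DCs and B cells reached 50 cells in the Tet2 KO library of that sort alone, with 155 and 52 cells, and T or NK cells in none. All markers of HSPCs, monocytes, neutrophils, classical DCs, basophil or mast cells, B cells and plasma cells were at least 1.5-fold higher in the type than in other gated cells. This held for 8 of 9 markers of neutro-biased GMPs and 6 of 7 of plasmacytoid DCs, but for only 4 of 9 of mono-biased GMPs, where Mpo (1.10-fold), Prtn3 (1.36-fold) and Klf4 (52.6 against 39.9 CPM) were little higher than in other gated cells and Kit (17.4 against 31.9 CPM) and Cd74 (7.99 against 694 CPM) lower. Cells were gated on UMIs of markers, so higher marker levels inside a gate are in part set by the gate and are no independent check of its type. At least 2 UMIs of 12 cycling genes were found in 78.7% and 75.5% of monocytes and 63.9% and 76.0% of neutrophils, against 76.7% and 82.2% of mono-biased and 77.6% and 67.5% of neutro-biased GMPs of that sort, so the gates for monocytes and neutrophils are not shown to hold mature cells alone. Erythroid, megakaryocyte and macrophage markers stayed at or below 7.25 CPM over all cells.

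Across 26 profiles, 1 per library and type with at least 50 cells, Trp53 was highest in HSPCs, Runx1 in basophil or mast cells, Cbl in DCs, monocytes and neutrophils, and Jak2 in DCs and basophil or mast cells, while neighbouring types had overlapping intervals throughout for Asxl1 and Ppm1d. Counts for these levels ranged from 2 UMIs, for Asxl1 and Ppm1d in basophil or mast cells, to 5672 UMIs, for U2af1 in neutro-biased GMPs. The plot of levels by type shows these patterns for all libraries.

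**Figure D1:**
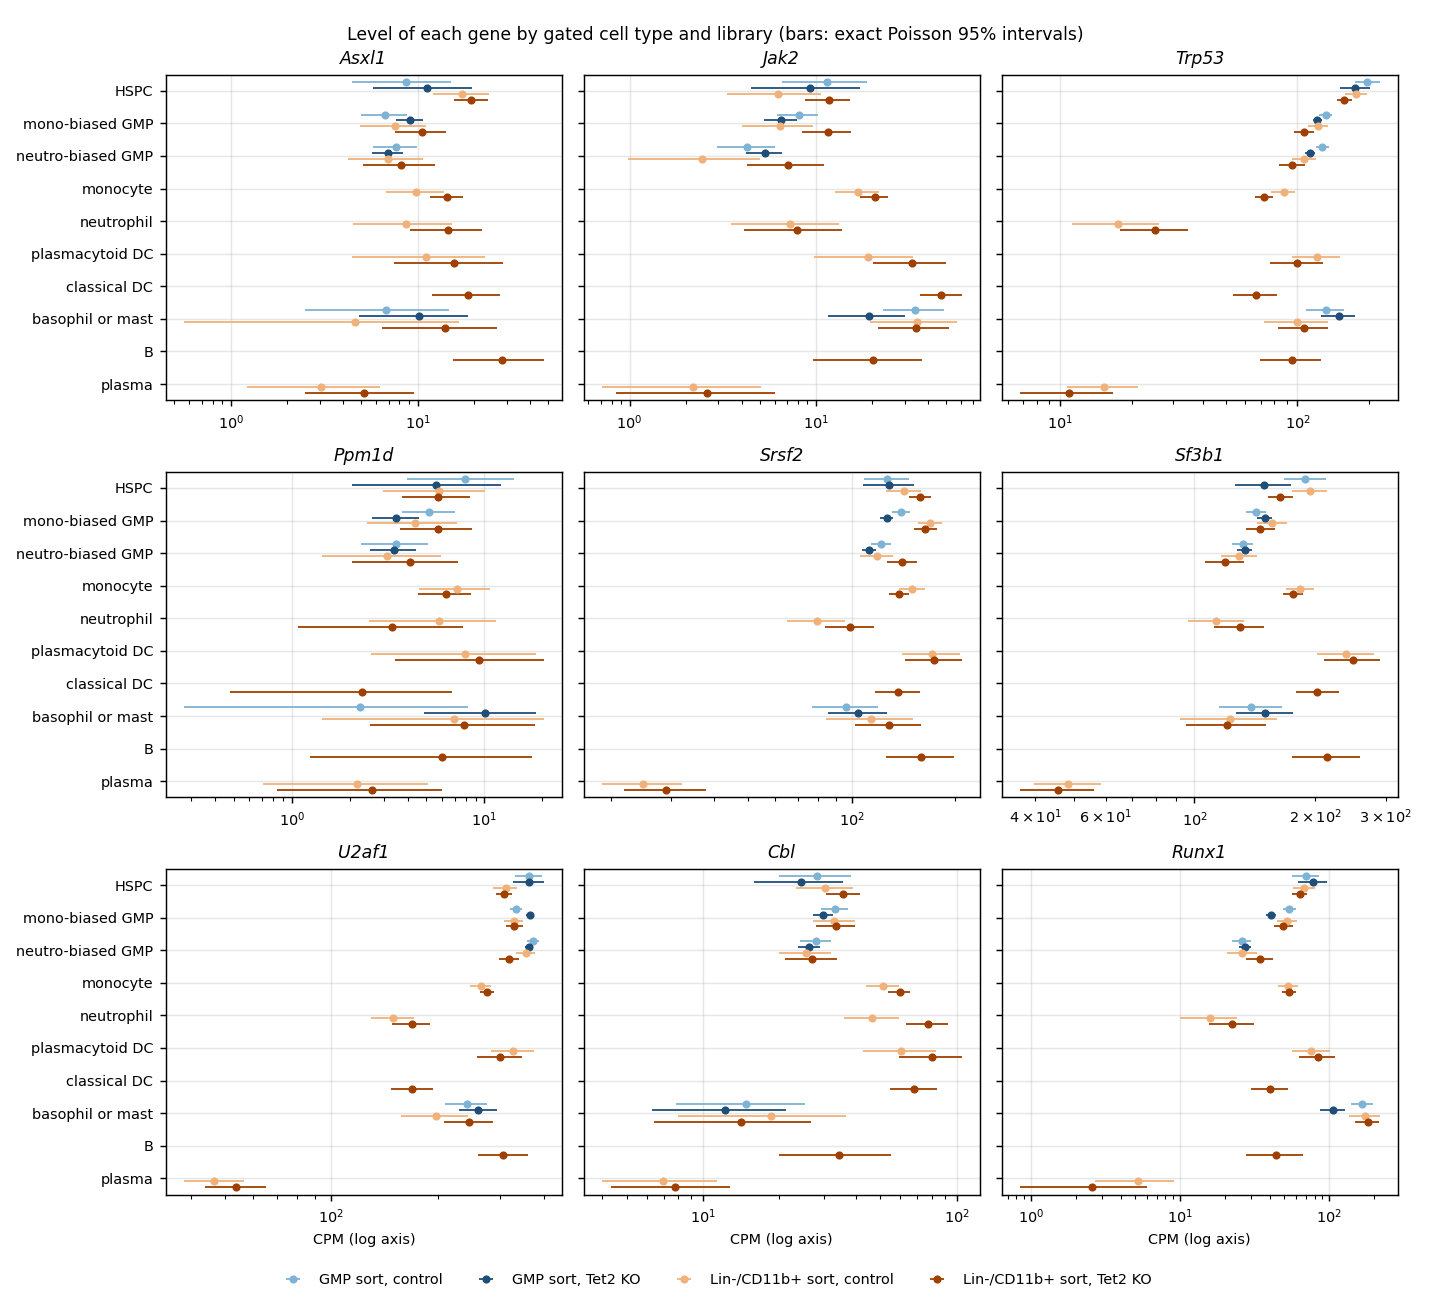
Level of each of the 9 genes in CPM (log axis) by gated cell type, 1 panel per gene, with points for the 4 libraries and bars for exact Poisson 95% intervals. Trp53 runs from 197 CPM in HSPCs to 10.9 CPM in plasma cells and Runx1 from 181 CPM in basophil or mast cells to 2.59 CPM in plasma cells.

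Few of the 9 genes differed 1.5-fold or more between Tet2 KO and control cells of a type. In the GMP sort, 0 of the 6 genes with at least 50 UMIs over both libraries passed this fold in HSPCs (9.48% of all genes with that many UMIs passed), 0 of 9 in mono-biased GMPs (6.11% of all genes), 0 of 9 in neutro-biased GMPs (6.55%) and 1 of 5 in basophil or mast cells (12.4%). In the Lin-/CD11b+ sort the count was 1 of 8 in HSPCs (9.08% of all genes), 1 of 8 in mono-biased GMPs (8.38%), 0 of 6 in neutro-biased GMPs (7.21%) and 0 of 9 in monocytes (10.4%). It was 1 of 6 in neutrophils (21.7% of all genes), 0 of 6 in plasmacytoid DCs (8.63%), 0 of 5 in basophil or mast cells (16.0%) and 0 of 4 in plasma cells (15.1%). The 4 passing values were Runx1, lower in Tet2 KO basophil or mast cells of the GMP sort, Jak2, higher in Tet2 KO HSPCs and mono-biased GMPs of the Lin-/CD11b+ sort, and Cbl, higher in Tet2 KO neutrophils. No comparison had more than 1 of the 9 genes past the fold.

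**Figure D2:**
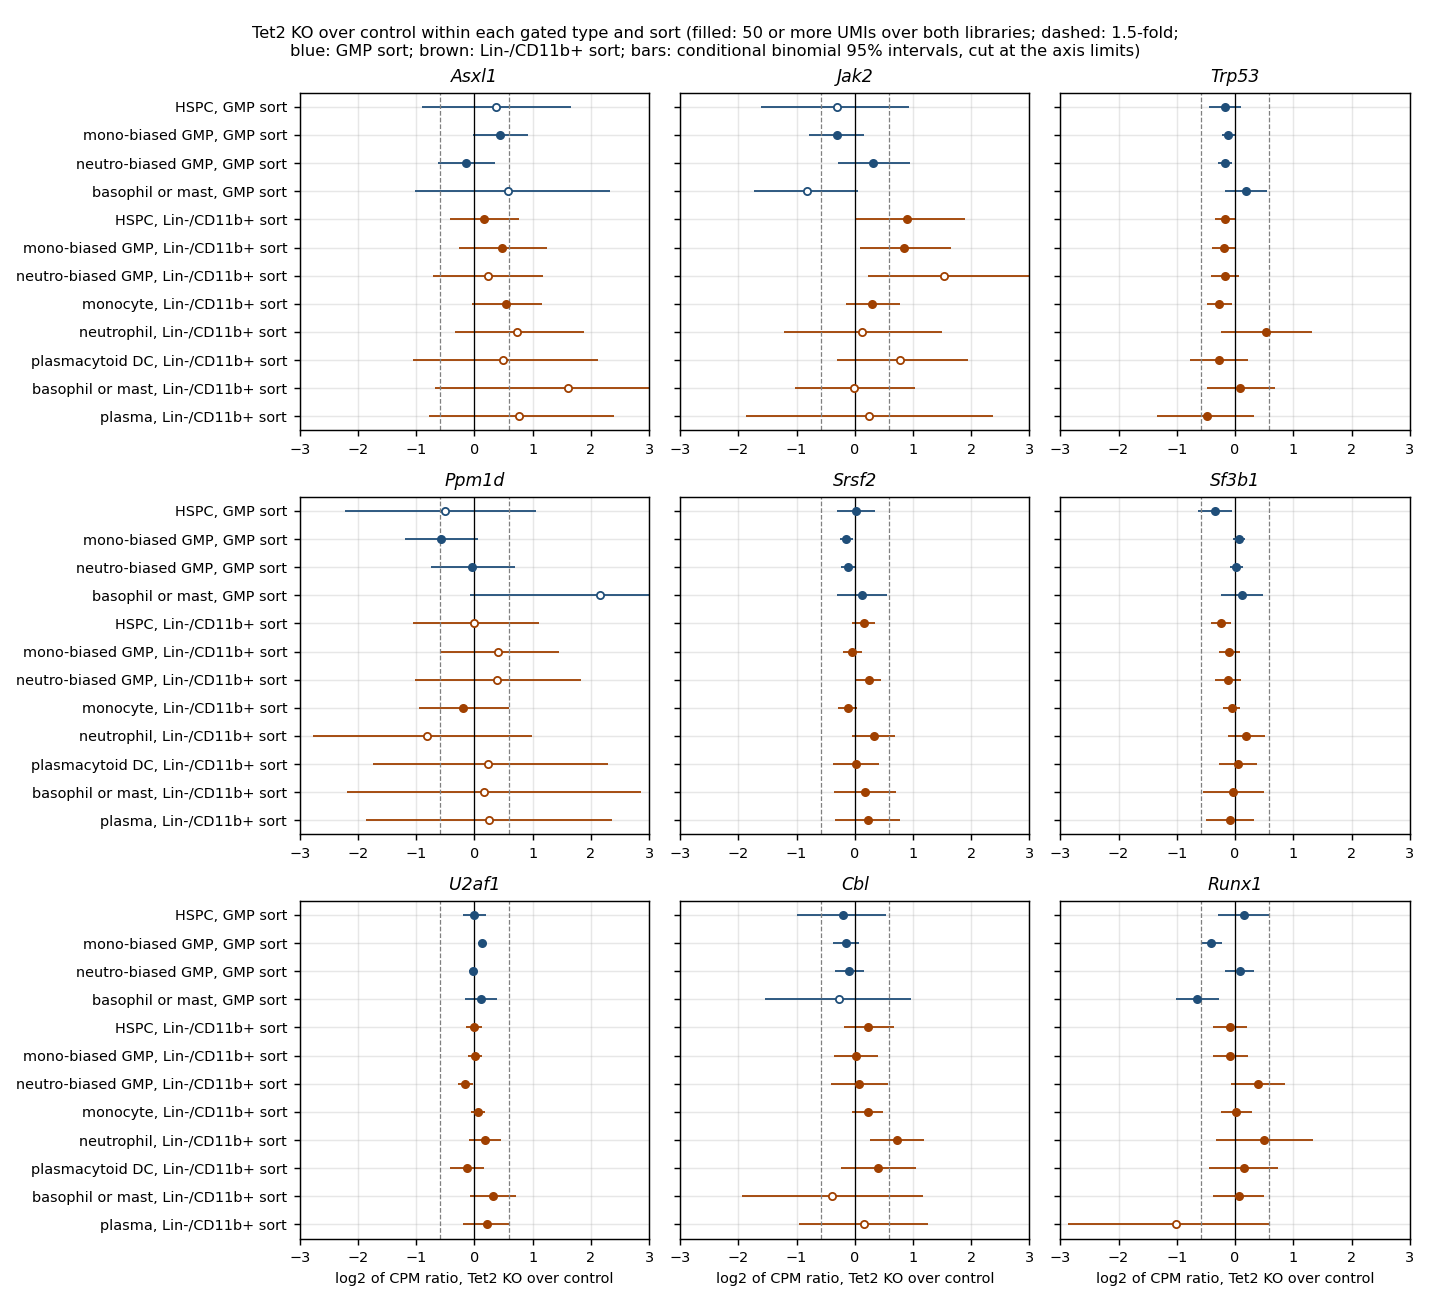
Log2 ratio of CPM, Tet2 KO over control, for each of the 9 genes in 12 comparisons within a type and sort, with conditional binomial 95% intervals, filled points for genes with at least 50 UMIs over both libraries and dashed lines at 1.5-fold. Most intervals span 0, and those of Runx1 in mono-biased GMPs and in basophil or mast cells of the GMP sort lie below it at −0.41 and −0.65.

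Asxl1 encodes a chromatin adaptor that works with the BAP1 deubiquitinase of histone H2A and with Polycomb proteins, and lies on chr2:153345829-153404007 (GRCm38, plus strand). It was a sparse transcript. In HSPCs its level was 8.66 CPM in control and 11.2 CPM in Tet2 KO cells of the GMP sort, and 17.4 and 19.4 CPM in the Lin-/CD11b+ sort. Its mono-biased GMP levels were 6.69, 9.08, 7.58 and 10.5 CPM and its monocyte levels 9.87 and 14.4 CPM. Within the Lin-/CD11b+ sort HSPCs thus exceeded mono-biased GMPs by a log2 ratio of 1.20 (0.43 to 1.98) in the control and 0.88 (0.33 to 1.45) in the Tet2 KO library. The highest Asxl1 level was 28.2 CPM (15.4 to 47.4), from 14 UMIs in Tet2 KO B cells, of which 15.4% had a UMI. Plasma cells had the lowest level of each of their libraries, 3.06 and 5.19 CPM, but 14.7 and 22.2 CPM when scaled without their 50 most abundant genes, against 10.4 and 12.3 CPM in neutro-biased GMPs on that scale. Intervals of every pair of neighbouring types overlapped.

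Asxl1 was higher in Tet2 KO cells in 11 of the 12 comparisons, which share 4 libraries and 2 mice, and no single interval lay off 0. The ratios were 0.44 (−0.03 to 0.93) in mono-biased GMPs of the GMP sort, 0.48 (−0.26 to 1.24) in those of the Lin-/CD11b+ sort and 0.54 (−0.04 to 1.16) in monocytes. Neutro-biased GMPs of the GMP sort, at −0.14 (−0.62 to 0.35), were the exception. Summed over the whole Lin-/CD11b+ library, Asxl1 rose from 9.92 to 14.6 CPM, a log2 ratio of 0.56 (0.33 to 0.79) that was the same, 0.56, when the 8 types had equal weight in both genotypes. In the whole GMP sort the ratio was 0.11 (−0.15 to 0.38), and 0.33 with equal weight of types.

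Of 19 partners of Asxl1 in Polycomb and BAP1 complexes, few passed 1.5-fold outside neutrophils. In mono-biased GMPs of the GMP sort 1 of 16 measured partners was higher in Tet2 KO cells (2.24% of all genes were) and 1 lower (3.88%), namely the demethylase Kdm1b, at 0.92 (−0.07 to 2.03), and the Polycomb ring protein Bmi1, at −0.61 (−1.04 to −0.17; below 1.5-fold with TMM scaling). Neutro-biased GMPs had 0 of 17 higher (2.98% of all genes) and 2 lower (3.57%), Foxk2 at −0.64 (−1.06 to −0.20) and Kdm1b at −0.63 (−1.46 to 0.21), and both Kdm1b intervals hold 0. HSPCs of the Lin-/CD11b+ sort had 1 of 13 higher (5.70% of all genes) and 0 lower (3.38%), and monocytes 1 of 14 higher (6.76%) and 0 lower (3.60%). In neutrophils 3 of 5 were higher (18.3% of all genes) and 0 lower (3.39%), Suz12 at 0.99 (0.12 to 1.91), Ezh2 at 0.83 (0.32 to 1.37) and Jarid2. The list's medians were −0.05, −0.13, 0.12, 0.08 and 0.78 in these 5 comparisons, against −0.02, −0.04, −0.00, 0.02 and 0.23 over all genes. TMM scaling shifted neutrophil ratios by −0.26 and left 1 of the 3 Polycomb genes past the fold. The neutrophil gate also had more Elane (248 and 373 CPM, control first) and Mpo (66.2 and 112 CPM) in Tet2 KO cells. Its share of cells with at least 2 UMIs of cycling genes was 63.9% and 76.0%. Whether this bears on the neutrophil ratios was not tested. Asxl2, the closest relative of Asxl1, stayed within 1.5-fold in all 5, from −0.21 (−0.51 to 0.09) in neutro-biased GMPs to 0.41 (−0.06 to 0.90) in HSPCs.

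Jak2 encodes the kinase that carries signals from the receptors for erythropoietin, GM-CSF, IL-3 and interferon gamma, and lies on chr19:29251828-29313080 (plus strand). It was highest in basophil or mast cells and DCs. Its basophil or mast cell levels were 34.0 CPM in control and 19.3 CPM in Tet2 KO cells of the GMP sort, and 34.8 and 34.4 CPM in the Lin-/CD11b+ sort. The highest value was 47.2 CPM (36.1 to 60.7) in Tet2 KO classical DCs, of which 21.3% had a Jak2 UMI at equal depth. Plasmacytoid DCs had 19.0 and 32.8 CPM, monocytes 16.7 and 20.7 CPM, and neutro-biased GMPs 4.29, 5.32, 2.44 and 7.08 CPM. Basophil or mast cells therefore exceeded neutro-biased GMPs in all 4 libraries, by log2 ratios of 2.99, 1.86, 3.84 and 2.28, with the lowest bound at 1.05. Intervals of neighbouring types overlapped everywhere in the order except in GMP control cells, where basophil or mast cells stood above HSPCs and mono-biased above neutro-biased GMPs.

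Between genotypes, the Jak2 ratio had opposite signs in the 2 sorts in HSPCs and mono-biased GMPs, with intervals off 0 in the Lin-/CD11b+ sort alone. HSPCs of the Lin-/CD11b+ sort rose from 6.27 to 11.7 CPM, a ratio of 0.90 (0.01 to 1.90) from 13 and 53 UMIs, while those of the GMP sort gave −0.30 (−1.61 to 0.93). Mono-biased GMPs gave 0.85 (0.09 to 1.65) in the Lin-/CD11b+ sort and −0.31 (−0.78 to 0.17) in the GMP sort. Neutro-biased GMPs of the Lin-/CD11b+ sort, with 7 and 19 UMIs, gave 1.54 (0.23 to 3.03), too few UMIs to count toward the fold rule. Leiden clusters in place of gates put the HSPC value of the Lin-/CD11b+ sort at 0.35 and thinned cells put it at 0.43, both under 1.5-fold, while the mono-biased GMP value there stayed past it at 0.99 and 0.80. Thinning moved the mono-biased GMP value of the GMP sort to −0.97. Over whole libraries Jak2 fell by 0.32 (−0.59 to −0.05) in the GMP sort and rose by 0.67 (0.44 to 0.91) in the Lin-/CD11b+ sort, on the log2 scale. With equal weight of types these were −0.52 and 0.44. Whether the sorts differ was not tested.

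The JAK-STAT pathway around Jak2 was followed in a list of 27 genes. Jak1, the partner kinase, was modestly higher in Tet2 KO cells of all 5 comparisons, by 0.21 to 0.38, with an interval above 0 in mono-biased GMPs, HSPCs and monocytes. Receptor genes did not share a direction. Il3ra, the IL-3 receptor alpha chain, was lower in Tet2 KO HSPCs (48.2 to 21.4 CPM; −1.17, −1.59 to −0.75) and monocytes (94.8 to 46.5 CPM; −1.03, −1.26 to −0.80), while the beta chain genes Csf2rb (0.74, 0.44 to 1.05) and Csf2rb2 (1.14, 0.31 to 2.05) were higher in Tet2 KO monocytes. The feedback inhibitor Socs3 was lower in Tet2 KO HSPCs (21.7 to 7.50 CPM; −1.53, −2.22 to −0.86). Jak3 was lower in mono-biased GMPs (−1.21, −1.86 to −0.57), Csf2ra in neutro-biased GMPs (−0.62, −0.80 to −0.45; below 1.5-fold with TMM scaling), and Stat6 higher in neutrophils (0.86, 0.08 to 1.69). In total 1 of 22, 1 of 20, 2 of 21, 5 of 19 and 1 of 11 measured genes were higher in mono-biased GMPs, neutro-biased GMPs, HSPCs, monocytes and neutrophils, and 1, 1, 3, 1 and 0 were lower. Of all genes 2.24%, 2.98%, 5.70%, 6.76% and 18.3% were higher and 3.88%, 3.57%, 3.38%, 3.60% and 3.39% lower in these comparisons. The medians, −0.00, −0.08, −0.03, 0.13 and 0.24, stayed near those of all genes.

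Cbl encodes a ubiquitin ligase that marks activated receptor tyrosine kinases such as Kit, Flt3 and Csf1r for degradation, and lies on chr9:44142976-44234049 (minus strand). It had its higher levels in DCs, monocytes and neutrophils. Plasmacytoid DCs had 60.2 CPM in control and 79.6 CPM in Tet2 KO cells, neutrophils 46.5 and 76.7 CPM, monocytes 51.1 and 59.6 CPM, and Tet2 KO classical DCs 68.1 CPM. Mono-biased GMPs had 33.2, 29.7, 32.9 and 33.4 CPM over the 4 libraries, and neutro-biased GMPs 27.9, 26.1, 25.4 and 26.8 CPM. Cbl was thus nearly level among GMPs and higher in monocytes and neutrophils, by 0.64 (0.28 to 0.99) and 0.83 (0.55 to 1.13) for monocytes over mono-biased GMPs and by 0.87 (0.37 to 1.38) and 1.52 (1.08 to 1.96) for neutrophils over neutro-biased GMPs, control first, the latter 1.71 and 2.13 without the 50 most abundant genes. Basophil or mast cells had only 12.2 to 18.6 CPM and plasma cells 6.99 and 7.78 CPM. In the Tet2 KO library of the Lin-/CD11b+ sort the 4 highest types overlapped one another in order and stood apart from HSPCs, at 35.8 CPM, below them.

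The genotype ratio of Cbl passed 1.5-fold in neutrophils alone, at 0.72 (0.27 to 1.19), with 19.4% of control and 35.3% of Tet2 KO neutrophils holding a Cbl UMI at equal depth. The median ratio over all genes in neutrophils was 0.23, and TMM scaling, which shifts neutrophil ratios by −0.26, left Cbl at 0.46. Leiden clusters gave 0.55 and scaling without the 50 most abundant genes 0.50, both under 1.5-fold with the same sign. The ratio was 0.22 (−0.04 to 0.49) in monocytes and −0.16 (−0.38 to 0.07) in mono-biased GMPs of the GMP sort. Over the whole Lin-/CD11b+ library it was 0.26 (0.13 to 0.38) and in the GMP sort −0.09 (−0.23 to 0.05).

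Of 22 genes of the Cbl family, its adaptors and receptor substrates, 0 of 19, 2 of 17, 1 of 17, 1 of 16 and 1 of 7 measured were higher in mono-biased GMPs, neutro-biased GMPs (4 with TMM scaling), HSPCs, monocytes and neutrophils, and 1, 0, 1, 0 and 0 were lower, beside 2.24%, 2.98%, 5.70%, 6.76% and 18.3% of all genes higher and 3.88%, 3.57%, 3.38%, 3.60% and 3.39% lower. The medians were −0.06, −0.05, 0.05, 0.02 and 0.45. Among receptors that Cbl acts on, Flt3 was lower in Tet2 KO mono-biased GMPs (8.96 to 4.28 CPM; −1.07, −1.58 to −0.56), Csf3r, the G-CSF receptor, higher in monocytes (15.6 to 25.6 CPM; 0.72, 0.26 to 1.20), and Csf1r, the M-CSF receptor, higher in neutrophils (20.4 to 34.4 CPM; 0.76, 0.07 to 1.47; below 1.5-fold with TMM scaling). Met was higher in neutro-biased GMPs (1.18, 0.22 to 2.26), and in HSPCs the adaptor Crkl was higher (0.79, 0.05 to 1.61) and the inhibitor Spry2 lower (−1.21, −1.92 to −0.50). The relative Cblb had 4.42 and 3.88 CPM in mono-biased GMPs, 2.41 and 3.72 CPM in neutro-biased GMPs (0.62, −0.16 to 1.47) and ratios near 0 in HSPCs (0.05) and monocytes (0.09).

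Trp53 encodes p53, the transcription factor that halts the cell cycle or triggers death after DNA damage, and lies on chr11:69580359-69591873 (plus strand). Its level stepped down from HSPCs to GMPs and from these to monocytes and neutrophils. HSPCs had 197 CPM in control and 175 CPM in Tet2 KO cells of the GMP sort, and 177 and 158 CPM in the Lin-/CD11b+ sort. Mono-biased GMPs had 132, 121, 122 and 106 CPM, and neutro-biased GMPs 127, 113, 107 and 94.98 CPM. Monocytes had 87.3 and 72.3 CPM, neutrophils 17.4 and 25.1 CPM, and plasma cells 15.3 and 10.9 CPM. HSPCs exceeded mono-biased GMPs in all 4 libraries, by log2 ratios of 0.58 (0.39 to 0.78), 0.53 (0.30 to 0.74), 0.54 (0.33 to 0.74) and 0.57 (0.39 to 0.74). Mono-biased GMPs exceeded monocytes by 0.48 (0.26 to 0.70) in the control and 0.56 (0.37 to 0.75) in the Tet2 KO library, and neutro-biased GMPs exceeded neutrophils by 2.61 (2.01 to 3.28) and 1.92 (1.42 to 2.45), or 1.78 and 1.31 when scaled without the 50 most abundant genes. At equal depth 66.3%, 51.3%, 58.0% and 54.1% of HSPCs held a Trp53 UMI, against 5.56% and 10.7% of neutrophils. In the order of types, HSPCs stood apart from the next type in 3 libraries and overlapped with basophil or mast cells in Tet2 KO cells of the GMP sort, and the 2 GMP types overlapped in all 4.

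The Trp53 ratio was below 0 in 9 of the 12 comparisons and within 1.5-fold in all. The interval lay below 0 in 3: mono-biased GMPs of the GMP sort, at −0.12 (−0.23 to −0.0041), neutro-biased GMPs of that sort, at −0.18 (−0.29 to −0.06), and monocytes, at −0.27 (−0.49 to −0.06). The same types in the Lin-/CD11b+ sort gave −0.20 and −0.17 with intervals that reached 0. Basophil or mast cells, at 0.18 and 0.09, and neutrophils, at 0.53 (−0.25 to 1.33), were the exceptions. The lowest value, −0.49 (−1.34 to 0.33) in plasma cells, came from 35 and 21 UMIs and was −0.59, past 1.5-fold, with TMM scaling, −0.65 without the 50 most abundant genes and 0.56 in thinned cells. Over whole libraries the ratio was −0.11 in both sorts, with intervals of −0.18 to −0.05 and −0.19 to −0.04.

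Of 31 p53 targets and regulators, Cdkn1a, the cell cycle inhibitor p21, passed the fold downward in 2 comparisons. It went from 52.1 to 19.9 CPM in Lin-/CD11b+ HSPCs (−1.39, −1.81 to −0.97) and from 8.31 to 3.72 CPM in neutro-biased GMPs (−1.16, −1.70 to −0.62). Within the fold it had 41.6 and 28.6 CPM in monocytes (−0.54, −0.86 to −0.21), 8.58 and 6.25 CPM in mono-biased GMPs (−0.46, −0.92 to 0.01) and, from 10 and 15 UMIs, 7.27 and 9.92 CPM in neutrophils (0.45, −0.80 to 1.76). Mdm2, the ubiquitin ligase that p53 induces and that degrades p53, was lower in monocytes at 25.4 and 17.2 CPM (−0.56, −0.98 to −0.14) and had intervals across 0 in the other 4. Gadd45a (93.8 to 37.0 CPM; −1.34, −1.82 to −0.88) and Btg2 (147 to 68.8 CPM; −1.09, −1.45 to −0.75) were lower in neutrophils, where the median of all genes was higher, and Btg2 also in mono-biased GMPs (−0.65, −0.91 to −0.38). Other targets went up: the death receptor Fas was higher in monocytes (6.28 to 17.8 CPM; 1.504, 0.83 to 2.25), and so was Ddit4 (0.98, 0.11 to 1.94). Usp7 (0.90, 0.11 to 1.72), Mdm4 (0.73, −0.03 to 1.53) and Bax passed the fold in neutrophils, of which TMM scaling left Usp7 alone and added Mdm2 to those lower there. The list had 1 of 21 higher and 3 lower in mono-biased GMPs, 0 of 19 and 2 in neutro-biased GMPs, 0 of 15 and 2 in HSPCs, 2 of 21 and 0 in monocytes and 3 of 6 and 2 in neutrophils, where the shares over all genes were 2.24%, 2.98%, 5.70%, 6.76% and 18.3% higher and 3.88%, 3.57%, 3.38%, 3.60% and 3.39% lower. The list's medians were 0.02, −0.23, −0.04, −0.09 and 0.06.

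Ppm1d encodes the phosphatase Wip1, a p53 target that turns off p53 and the damage kinases, and lies on chr11:85311244-85347066 (plus strand). It was counted at 2.18 to 10.1 CPM in all 26 profiles, from at most 53 UMIs, and between 0.685% and 7.23% of cells held a UMI at equal depth. HSPCs had 7.94, 5.61, 5.79 and 5.74 CPM and neutro-biased GMPs 3.48, 3.40, 3.13 and 4.10 CPM. No neighbouring types had separate intervals in any library. Further apart in the order, basophil or mast cells of the Tet2 KO GMP sort, at 10.1 CPM (4.86 to 18.6) from 10 UMIs, stood above mono-biased GMPs, at 3.49 CPM (2.61 to 4.56), and neutro-biased GMPs. The ratio was −0.57 (−1.19 to 0.05) in mono-biased GMPs of the GMP sort, where 2.995% of control and 0.969% of Tet2 KO cells held a UMI, and 0.40 (−0.60 to 1.45) in those of the Lin-/CD11b+ sort. It fell by 0.39 (−0.75 to −0.02) over the whole GMP sort, but with equal weight of types the value was 0.26, a mean in which basophil or mast cells, with 2 and 10 UMIs, weigh as much as each kind of GMP.

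Among 14 DNA damage kinases and Ppm1d substrates, 0 of 14, 0 of 14, 2 of 14, 0 of 13 and 2 of 5 measured were higher in mono-biased GMPs, neutro-biased GMPs, HSPCs, monocytes and neutrophils, and 1, 0, 0, 0 and 0 lower, against 2.24%, 2.98%, 5.70%, 6.76% and 18.3% and 3.88%, 3.57%, 3.38%, 3.60% and 3.39% of all genes, with medians of −0.17, −0.06, 0.02, 0.04 and 0.10. Brca1, which acts in repair of double-strand breaks, was lower in Tet2 KO mono-biased GMPs (11.9 to 7.70 CPM; −0.62, −1.03 to −0.22) and had 6.75 and 11.3 CPM in HSPCs (0.74, −0.14 to 1.71), and the kinase Atr was higher in HSPCs (12.5 to 22.7 CPM; 0.86, 0.23 to 1.54). TMM scaling left 0 of the 2 neutrophil genes higher and put 1, Mdm2, past the fold downward.

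Srsf2, Sf3b1 and U2af1 encode splicing proteins. Srsf2, on chr11:116849901-116853094 (minus strand), encodes a protein that binds enhancer sequences within exons. Sf3b1, on chr1:54985169-55027481 (minus strand), encodes the U2 particle protein that holds the branch point. U2af1, on chr17:31647081-31658892 (minus strand), encodes the protein that reads the end of the intron. Transcripts of all 3 were counted in all 26 profiles.

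Srsf2 had 139, 126, 169 and 164 CPM in mono-biased GMPs and 122, 112, 118 and 140.1 CPM in neutro-biased GMPs over the 4 libraries. HSPCs had 126, 128, 142 and 158 CPM and plasmacytoid DCs 171 and 173 CPM. Mono-biased exceeded neutro-biased GMPs in all 4 libraries, by log2 ratios of 0.20 (0.07 to 0.33), 0.17 (0.08 to 0.26), 0.51 (0.32 to 0.71) and 0.23 (0.04 to 0.41). Neighbours in the order of types overlapped, except these 2 in Tet2 KO cells of the GMP sort and, in the Lin-/CD11b+ sort, neutrophils and plasma cells, the latter at 24.9 and 29.0 CPM. The genotype ratio was −0.14 (−0.25 to −0.04) in mono-biased GMPs of the GMP sort and 0.24 (0.03 to 0.46) in neutro-biased GMPs of the Lin-/CD11b+ sort, and the latter became −0.11 in cells thinned to 5000 UMIs. Every other interval for Srsf2 within a type held 0.

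Sf3b1 was highest in plasmacytoid DCs, with 239 CPM (203 to 281) in control and 248 CPM (211 to 290) in Tet2 KO cells, and 72.5% and 65.3% of these cells held a UMI. HSPCs had 189, 149, 194 and 164 CPM, monocytes 184 and 176 CPM, mono-biased GMPs 143, 149.7, 156 and 146 CPM and neutro-biased GMPs 132, 134, 129 and 119 CPM. Plasmacytoid DCs overlapped with the next type in both libraries. In HSPCs Sf3b1 was lower in Tet2 KO cells of both sorts, at −0.35 (−0.64 to −0.06) and −0.24 (−0.42 to −0.06). Leiden clusters, which take in further cells, gave 0.06 in the GMP sort and −0.22 in the Lin-/CD11b+ sort, so the first depends on how HSPCs are defined. No other type had an interval off 0, and whole libraries gave 0.00 (−0.06 to 0.07) and 0.01 (−0.05 to 0.07).

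U2af1 had its higher levels in progenitors, plasmacytoid DCs and B cells. Neutro-biased GMPs had 371, 363, 355 and 318 CPM, mono-biased GMPs 332, 364, 328 and 329 CPM and HSPCs 362, 361, 311 and 309 CPM. Plasmacytoid DCs had 327 and 300 CPM and Tet2 KO B cells 307 CPM, and both overlapped with HSPCs of their libraries. Lower levels were found in basophil or mast cells, with 242, 261, 197 and 245 CPM, in monocytes, with 264 and 276 CPM, in classical DCs, with 169.5 CPM, and in neutrophils, with 149 and 169 CPM. Neighbouring progenitor types overlapped, while monocytes lay below mono-biased GMPs by −0.31 (−0.44 to −0.18) and −0.26 (−0.36 to −0.15) and neutrophils below neutro-biased GMPs by −1.252 (−1.48 to −1.03) and −0.92 (−1.12 to −0.71), or −0.42 and −0.31 without the 50 most abundant genes. Between genotypes the ratio was 0.13 (0.07 to 0.20) in mono-biased GMPs of the GMP sort but 0.01 (−0.11 to 0.12) in those of the Lin-/CD11b+ sort, and −0.16 (−0.29 to −0.03) in neutro-biased GMPs of the latter. The narrow intervals bound any change of U2af1 in GMPs and HSPCs to well under 1.5-fold, for these 2 mice.

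U2af1 was also compared between cycling and other cells. Cells were split by at least 2 UMIs of 12 cycling genes such as Mki67 and Top2a, counted in cells thinned to 5000 UMIs. Levels on each side used all UMIs, and 12 profiles had 50 or more cells on each side. U2af1 was higher in the cycling cells of 11 of 12 profiles, with an interval above 0 in 7 and below 0 in 0. In Tet2 KO monocytes it was at 291 CPM in cycling and 209.6 CPM in other cells (0.47, 0.28 to 0.67), in Tet2 KO HSPCs of the Lin-/CD11b+ sort at 339.5 and 268 CPM (0.34, 0.18 to 0.50) and in control HSPCs at 335 and 273 CPM (0.30, 0.06 to 0.54). Sf3b1 was higher in cycling cells of 9 profiles (interval above 0 in 3) and Trp53 of 7 (interval above 0 in 3), Trp53 in HSPCs by 0.32 and 0.30. At a limit of 5 UMIs of the cycling genes U2af1 was higher in 9 of 14 profiles, with a median of 0.04 and an interval above 0 in 2 and below 0 in 1, control monocytes (−0.32, −0.51 to −0.13). Trp53 was higher in 7 of 14, above 0 in 2 and below 0 in 2, among them control monocytes (−0.45, −0.79 to −0.11), and Sf3b1 in 14 of 14, above 0 in 6. The U2af1 and Trp53 values thus depend on the limit.

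Of 24 spliceosome partners of Sf3b1, U2af1 and Srsf2, 0 of 24 passed the fold in mono-biased GMPs, 0 of 24 in neutro-biased GMPs and 0 of 22 in HSPCs, where 6.11%, 6.55% and 9.08% of all genes did, with medians of 0.07, −0.01 and 0.01. In monocytes 1 of 22 (6.76% of all genes), Prpf8, was higher (27.5 to 41.3 CPM; 0.59, 0.24 to 0.94; below 1.5-fold with TMM scaling), with a median of 0.02. In neutrophils 2 of 19 were higher (18.3% of all genes), Sf3b3 (9.45 to 28.4 CPM; 1.59, 0.67 to 2.61) and Sf3a3 (11.6 to 27.1 CPM; 1.22, 0.36 to 2.15), with a median of 0.37, and none of the list was lower in any of the 5. Of 15 SR proteins and their kinases, all measured, 0 passed in each of mono-biased GMPs, neutro-biased GMPs, HSPCs and monocytes, where 6.11%, 6.55%, 9.08% and 10.4% of all genes passed, with medians of 0.04, −0.04, −0.02 and 0.04. In neutrophils 3 were higher (18.3% of all genes; median 0.15), Srsf1 (0.81, 0.26 to 1.38), Srsf10 (0.64, 0.07 to 1.23) and Srsf3. With TMM scaling 0 of them stayed past it and 2 others, Srsf5 and Srpk1, passed it downward. U2af2, the large partner of U2af1, ranged from −0.18 (−0.33 to −0.02) in neutro-biased GMPs to 0.20 (−0.41 to 0.82) in neutrophils.

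Runx1 encodes the DNA-binding subunit of core binding factor, which sets up stem cells in the embryo and acts in megakaryocyte, lymphoid and myeloid cells, and lies on chr16:92601466-92826149 (minus strand). Basophil or mast cells had the highest level in every library, 167 CPM (141 to 196) in control and 106 CPM (87.1 to 129) in Tet2 KO cells of the GMP sort and 174 CPM (137 to 218) and 181 CPM (149.9 to 218) in the Lin-/CD11b+ sort. HSPCs had 70.0, 77.6, 68.0 and 63.8 CPM and plasmacytoid DCs 76.1 and 84.3 CPM. Basophil or mast cells stood apart from the next type in 3 libraries and overlapped with HSPCs in Tet2 KO cells of the GMP sort. Their ratio over HSPCs was 1.252 (0.87 to 1.64), 0.46 (0.03 to 0.89), 1.36 (0.93 to 1.77) and 1.51 (1.18 to 1.82).

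The 2 kinds of GMP differed in Runx1. Mono-biased GMPs had 54.3, 41.0, 52.4 and 49.5 CPM and neutro-biased GMPs 26.0, 27.4, 26.1 and 34.3 CPM. The ratio of mono-biased over neutro-biased GMPs was 1.06 (0.81 to 1.31) in control and 0.58 (0.40 to 0.76) in Tet2 KO cells of the GMP sort, and in the Lin-/CD11b+ sort 1.01 (0.61 to 1.41) in control and 0.53 (0.17 to 0.90) in Tet2 KO cells. It was thus above 0 in all 4 libraries and smaller in both Tet2 KO libraries, through a lower mono-biased level in the GMP sort and mainly a higher neutro-biased level in the Lin-/CD11b+ sort. Whether these ratios differ between genotypes was not tested. Monocytes kept the level of mono-biased GMPs, with 53.2 and 54.0 CPM, while neutrophils had 16.0 and 22.5 CPM and plasma cells 5.24 and 2.59 CPM.

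Runx1 in Tet2 KO over control cells was −0.41 (−0.58 to −0.22) in mono-biased GMPs of the GMP sort, from 430 and 623 UMIs, and −0.65 (−1.02 to −0.28) in basophil or mast cells there, from 147 and 105 UMIs. The basophil value kept its sign under all alternatives and fell under 1.5-fold with the stricter gate, at −0.57, as a mean over cells, at −0.58, and in thinned cells, at −0.38. In the Lin-/CD11b+ sort the same types gave −0.08 (−0.38 to 0.22) and 0.06 (−0.37 to 0.50), and in neutro-biased GMPs the values were 0.08 (−0.17 to 0.33) and 0.39 (−0.06 to 0.85). HSPCs gave 0.15 (−0.29 to 0.59) and −0.09 (−0.39 to 0.21). Runx1 was therefore lower in 2 Tet2 KO types of the GMP sort, and not detectably so in the same types of the other sort, from the same mice. Over whole libraries it was −0.28 (−0.39 to −0.17) in the GMP sort, or −0.33 with equal weight of types, and 0.09 (−0.02 to 0.20) in the Lin-/CD11b+ sort. The basophil or mast cell gate also differed in make-up between genotypes. Cells with at least 2 UMIs of cycling genes were 38.7% and 58.0% in the GMP sort and 30.2% and 62.0% in the other, control first. Mpo was at 2352 and 3546 CPM and at 1712 and 3277 CPM. Whether this bears on Runx1 was not tested.

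Cbfb, the subunit that stabilises Runx1 on DNA, was also lower in mono-biased GMPs of the GMP sort, from 53.9 to 41.1 CPM (−0.39, −0.57 to −0.21), while Runx2 (−0.37, −0.84 to 0.11) and Runx3 (−0.06, −0.35 to 0.24) had intervals across 0. Cbfb intervals spanned 0 in the other 4, from −0.13 (−0.33 to 0.07) in neutro-biased GMPs to 0.46 (−0.09 to 1.02) in neutrophils. Of 18 genes of core binding factor and Runx1 partners, 0 of 14, 0 of 15, 2 of 15, 0 of 12 and 1 of 6 measured were higher in mono-biased GMPs, neutro-biased GMPs, HSPCs, monocytes and neutrophils, and 0, 2, 0, 0 and 0 lower, while 2.24%, 2.98%, 5.70%, 6.76% and 18.3% of all genes were higher and 3.88%, 3.57%, 3.38%, 3.60% and 3.39% lower. The list had medians of −0.10, −0.13, 0.07, 0.03 and 0.19. The stem cell factor Tal1 was higher in Tet2 KO HSPCs (14.0 to 24.5 CPM; 0.81, 0.21 to 1.45) and lower in neutro-biased GMPs (6.16 to 3.97 CPM; −0.63, −1.21 to −0.05). Cebpa, a driver of myeloid fate, was higher in HSPCs (15.9 to 25.6 CPM; 0.69, 0.12 to 1.29), and Ets1 passed the fold downward in neutro-biased GMPs (−0.61, −1.33 to 0.12) and upward in neutrophils (0.68, 0.14 to 1.23), both below 1.5-fold with TMM scaling.

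Runx1 is transcribed from a pair of promoters far apart, and 3′ UMIs do not tell which was used. RefSeq (GRCm38.p6) gives promoter windows of 300 bases for 9 of the 9 genes, 11 windows in all. The RUNX motif TGTGGT, which reads as ACCACA on the opposite strand, occurs in 16.8% of all 32851 windows and in those of 2 of the 9 genes, with 2 matches in the distal window of Runx1 (chr16:92826025-92826324, minus strand), 0 in the proximal window (chr16:92697280-92697579, minus strand) and 1 in that of Asxl1. The GATA motif AGATAA, which reads as TTATCT on the opposite strand, occurs in 11.2% of windows and in none of the 9 genes. Both matches of the distal window lie past the first base of an exon, in chr16:92826027-92826052, and are in capitals in the first sequence. The others are the bases of each window before any Runx1 exon, chr16:92826150-92826324 and chr16:92697329-92697579, without a match.
distal motif stretch: taaacaACCACAgaACCACAagttgg
distal, before the exon: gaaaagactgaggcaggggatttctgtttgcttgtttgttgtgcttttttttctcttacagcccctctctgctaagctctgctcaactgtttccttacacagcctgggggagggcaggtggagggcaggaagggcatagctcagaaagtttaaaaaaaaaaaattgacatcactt
proximal, before the exon: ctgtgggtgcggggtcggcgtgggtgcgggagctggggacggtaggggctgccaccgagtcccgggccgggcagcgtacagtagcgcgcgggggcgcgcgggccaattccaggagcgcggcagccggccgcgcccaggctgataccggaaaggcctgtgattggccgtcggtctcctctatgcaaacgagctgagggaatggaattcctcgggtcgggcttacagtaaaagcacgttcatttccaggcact

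Annotated neighbours overlap some of these genes. On the same strand only Cbl has one, 5830462O15Rik, which does not reach the last base of Cbl where 3′ UMIs lie. On the other strand Srsf2 overlaps Mettl23 and Mfsd11, Asxl1 overlaps 2500004C02Rik, Cbl overlaps Gm47255 and Runx1 overlaps Gm26626.

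The CPM of plasma cells and neutrophils, low in both for Trp53, Srsf2, U2af1 and Runx1, stood beside a small set of genes that took most UMIs of these cells. The 50 most abundant genes held 79.1% and 76.7% of plasma cell UMIs, 70.3% and 66.4% in immunoglobulin genes, and 62.6% and 56.3% of neutrophil UMIs, 33.2% and 30.0% in S100a8 and S100a9. They held between 27.1% and 36.0% in every other profile. Scaled without them, neutrophils had 303 and 297 CPM of Sf3b1 and 398 and 386 CPM of U2af1, against 261 and 247 CPM of Sf3b1 and 375 and 387 CPM of U2af1 in monocytes, so neutrophils were no longer far below monocytes in these 2 genes. U2af1 in neutrophils stayed below its 469 and 469 CPM in HSPCs, 479 and 474 CPM in mono-biased and 531 and 477 CPM in neutro-biased GMPs of these libraries. Cbl at 124 and 176 CPM was higher in neutrophils than in any other type. Trp53 at 46.6 and 57.6 CPM in neutrophils and 73.3 and 46.7 CPM in plasma cells, against 267 and 239.9 CPM in HSPCs, and Runx1 at 25.1 and 11.1 CPM in plasma cells remained the lowest of all types on this scale. Srsf2 in plasma cells, at 119 and 125 CPM, stayed below its other types, while Sf3b1, at 232 and 196 CPM, did not.

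Shares of cells at equal depth showed the same highs and lows for U2af1 and Runx1. U2af1 UMIs were found in 71.1% to 83.3% of HSPCs and GMPs, in 46.5% and 56.7% of neutrophils and in 24.0% and 19.5% of plasma cells. Runx1 UMIs were found in 49.3%, 42.0%, 56.6% and 54.9% of basophil or mast cells and in 1.37% and 1.34% of plasma cells. The plasma cell shares of Asxl1, Jak2, Ppm1d and Runx1 ran from 0.685% to 2.05%, and how much of them is free RNA caught in droplets was not measured. The granule genes Elane and Mpo, made by neutrophil precursors, were at 112 and 30.1 CPM and 87.8 and 54.5 CPM in plasma cells, against 13127 and 12164 CPM of Elane in neutro-biased GMPs of the same libraries.

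**Figure D3:**
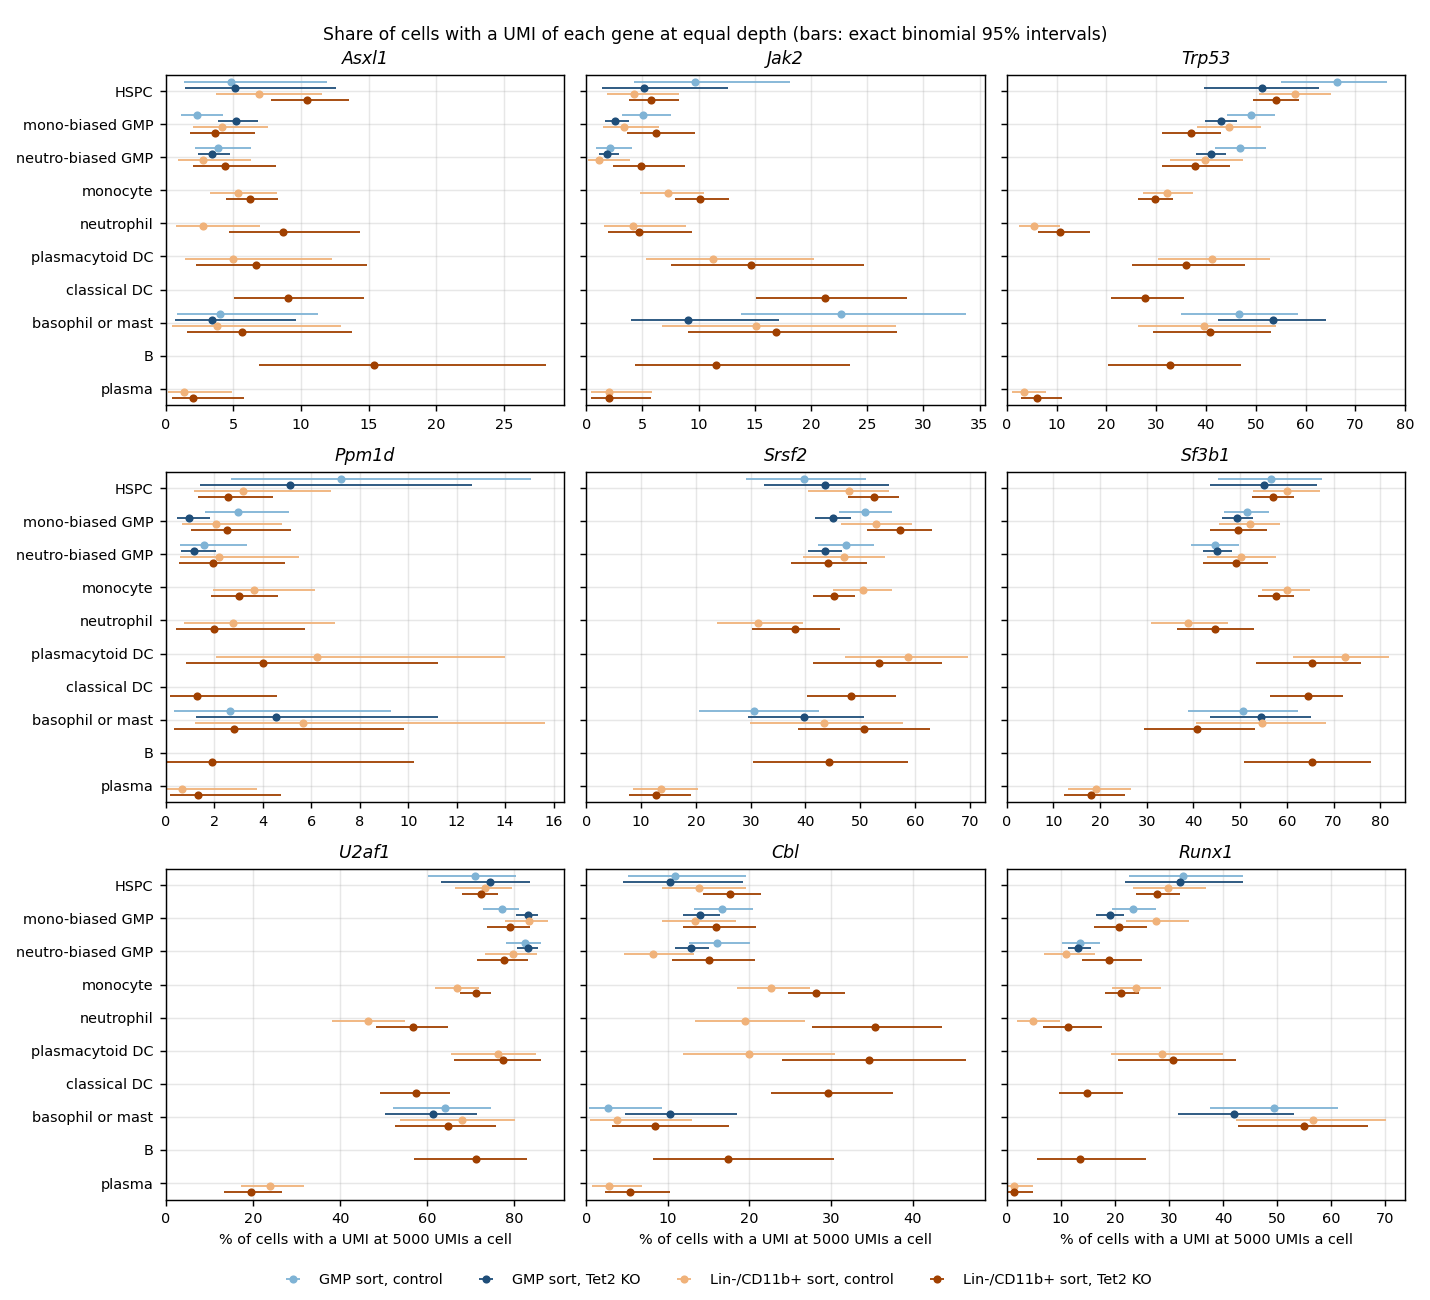
Share of cells with at least 1 UMI of each gene after thinning to 5000 UMIs a cell, in % by gated type, with points for the 4 libraries and exact binomial 95% intervals. Trp53 falls from 66.3% of HSPCs to 3.42% of plasma cells, and Jak2 reaches 22.7% in basophil or mast cells.

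Over the 26 profiles, each of the 9 genes had others with a like pattern, by Pearson r on log2(CPM + 10) among 7846 genes. The 26 profiles share 4 libraries, so r describes these libraries. U2af1 was most like Snrpd1 (r = 0.985) and Ran (0.983), Trp53 like Eif3d (0.980) and Rpl28 (0.979), Srsf2 like Anp32b (0.978) and Rdx (0.968), and Sf3b1 like Raly (0.963) and Ywhah (0.962). Runx1 was most like Hist1h3e (0.956) and Spn (0.936), and Cbl like Skap2 (0.933) and Cyfip1 (0.925). The sparse genes had lower values: Jak2 with Csf2rb (0.873) and Dock8 (0.873), Asxl1 with Grb2 (0.863), and Ppm1d with Tedc1 (0.788) and Rps6ka5 (0.759). Csf2rb, a receptor chain that signals through Jak2, and Grb2, an adaptor that binds Cbl, belong to the lists above. Among the 9 genes themselves the highest values were 0.903 for Srsf2 with Sf3b1, 0.893 for Srsf2 with U2af1 and 0.876 for Trp53 with U2af1, and the lowest 0.0576 for Cbl with Runx1.

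The mix of types differed between genotypes. HSPCs were 9.77% of control and 15.4% of Tet2 KO cells in the Lin-/CD11b+ sort and 6.60% and 2.87% in the GMP sort, and basophil or mast cells 5.96% and 3.24% in the GMP sort. Classical DCs, the type with the highest Jak2 level, were 1.51% and 5.05% in the Lin-/CD11b+ sort. They had too few control cells to enter the means with equal weight of types. Srsf2 changed sign between sorts over whole libraries, at −0.07 (−0.13 to −0.0024) and 0.14 (0.07 to 0.21), and still did with equal weight of types, at −0.04 and 0.09, and U2af1 gave 0.08 (0.04 to 0.12) and 0.04 (−0.01 to 0.09). With equal weight of types, the ratio kept its sign for all of the 9 genes and both sorts except Ppm1d in the GMP sort and Sf3b1 in both, whose whole-library values were 0.00 and 0.01.

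**Figure D4:**
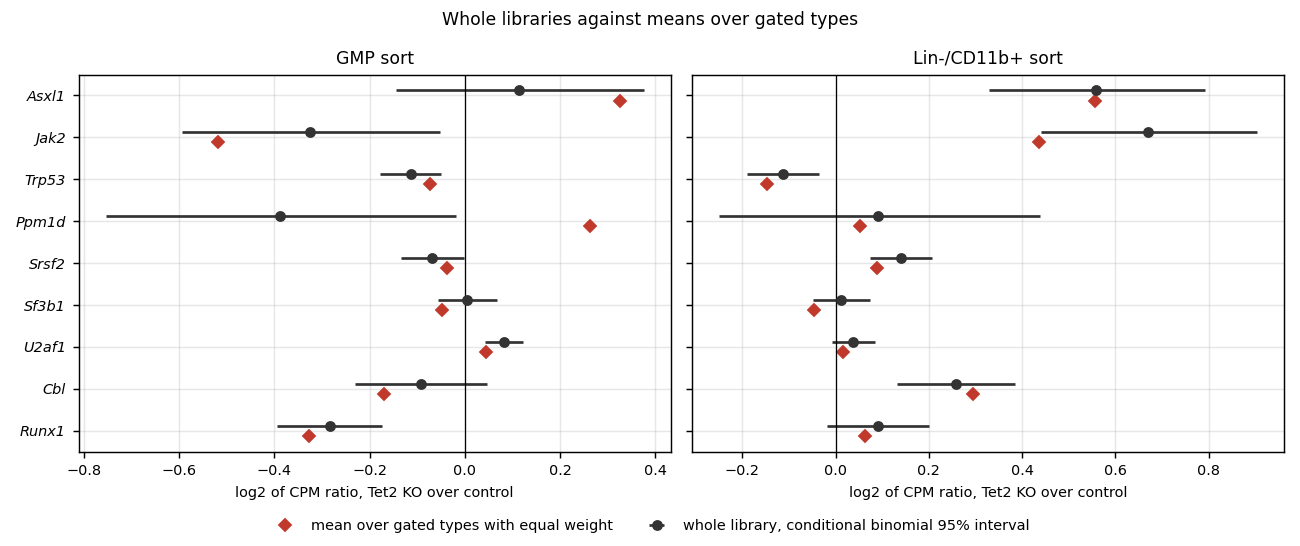
Log2 ratio of CPM, Tet2 KO over control, of each gene over whole libraries (circles, conditional binomial 95% intervals) and as the mean over gated types with equal weight (diamonds), 1 panel per sort. Jak2 is at −0.32 in the GMP sort and 0.67 in the Lin-/CD11b+ sort, and Sf3b1 is close to 0 in both.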

How the data were processed

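UMIs were counted in single bone marrow cells of 4 libraries, 1 per genotype and sort. The authors deposited UMI counts of each gene in each cell, and a table of cells, after mapping with Cell Ranger 3.1.0 on mm10 and filtering in Seurat per the submitters' processing notes. The sources used here do not give the annotation of the authors, and the kit is named as v2 in the methods and protocol and as another version in the series design. The methods state a mitochondrial limit, and 413 of 8969 deposited cells (4.60%) are at or over 5%, 116, 180, 44 and 73 by library. A supplement lists the cell numbers of the Tet2 KO GMP and control Lin-/CD11b+ libraries the other way round, and plasma and B cell gates, empty in both GMP libraries and filled in both others, side with the labels of the cell table. Every cell held at least 5003 UMIs.

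Cells were used as deposited, with no doublet caller run, and cells that met more than 1 gate or none were left out. Gates for 11 types used UMIs of markers and none of the 9 genes. Their limits and precedence were set after marker levels per cluster and a table of gates against clusters had been seen, and before member values by gate. Types needed 50 cells in a library, which gave 26 profiles and 12 comparisons of genotypes. A gene passed the fold at 1.5-fold or more with at least 50 UMIs over both libraries. With 1 library per group no test was made. The precision at each depth is given by the intervals.

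The 9 members and 11 gene lists were chosen with earlier results of these data known. Medians of lists are of log2 ratios of CPM + 1. Named genes are the members, at most the 2 highest and 2 lowest past the fold per list in 5 comparisons, and close relatives by name, and others are named where 5 or fewer passed. Likeness is Pearson r on log2(CPM + 10) over genes with at least 500 UMIs. Promoter windows span 250 bases before to 50 after a start, from RefSeq, and positions are from GENCODE M21. Alternatives were TMM factors of edgeR 4.0.16 in R 4.3.3, Leiden clusters without the 9 genes (2000 variable genes, 30 components, 30 neighbours, resolution 0.8), stricter gates, the mean over cells, leaving out cells by mitochondrial share or the 5% with most UMIs, thinned cells, other depths for shares, no minimum of UMIs, 1.25-fold, a limit of 5 cycling UMIs, and scaling without the 50 most abundant genes. Intervals and ratios were tested on simulated data. Python 3.11.15 was used with numpy 2.4.6, scipy 1.17.1, pandas 2.3.3, scanpy 1.11.5, leidenalg 0.10.2 and matplotlib 3.10.9, and seed 1.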

Additional observations from a re-analysis of the deposited data

Results flagged for a closer look

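These differences between genotypes had opposite directions in the 2 sorts, with the interval of at least 1 of the pair off 0 within a type and of both over whole libraries, and whether the sorts differ not tested. As log2 ratios of CPM, GMP sort first, Jak2 gave −0.30 and 0.90 in HSPCs, −0.31 and 0.85 in mono-biased GMPs and −0.32 and 0.67 over whole libraries. Srsf2 gave −0.12 and 0.24 in neutro-biased GMPs and −0.0685 and 0.14 over whole libraries. Runx1 gave −0.65 and 0.0604 in basophil or mast cells. With 1 of the 2 intervals off 0, whole libraries also gave opposite signs for Ppm1d (−0.39 and 0.09, but 0.26 and 0.05 with equal weight of types), Cbl (−0.09 and 0.26) and Runx1 (−0.28 and 0.09). Both sorts came from the same mice.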

How the results depend on the processing

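No value past 1.5-fold changed sign. Of values within the fold whose interval lay off 0, Srsf2 in neutro-biased GMPs of the Lin-/CD11b+ sort went from 0.24 to −0.11 in thinned cells and Sf3b1 in HSPCs of the GMP sort from −0.35 to 0.06 with Leiden clusters, and the cause was not tested. A value is said to move when it leaves the 95% interval of the main value, and a count when it changes by more than 1.5 times, so a value can stay in its interval and still cross the fold, as Cbl in neutrophils did with TMM factors, from 0.72 to 0.46. Of log2 ratios of the 9 genes, 13 of 108 moved in thinned cells, 3 of 90 with the stricter gate, 2 of 99 with Leiden clusters and 0 of 108 under each other alternative. Of CPM levels, 187 of 234 moved when scaled without the 50 most abundant genes, an alternative added after seeing the data, 13 of 216 with Leiden clusters, 9 of 207 with the stricter gate and 6 of 234 as a mean over cells. Shares moved in 183 of 234 unthinned and 148 of 234 at 3000 UMIs, list counts in 10 of 45 with TMM factors and 27 of 45 with no minimum, and cycling ratios in 13 of 99. Of counts of the 9 genes past the fold, the lower of the 2 fold limits, looser by construction, gave 1 for 0 in HSPCs and 3 for 0 in mono-biased GMPs of the GMP sort, and in the Lin-/CD11b+ sort 2 for 1 in mono-biased GMPs, 1 for 0 in neutro-biased GMPs, monocytes, plasmacytoid DCs and plasma cells, and 4 for 1 in neutrophils. With no minimum, which admits genes with few UMIs, the GMP sort gave 3 for 1 in basophil or mast cells, and the Lin-/CD11b+ sort 1 for 0 in neutro-biased GMPs, plasmacytoid DCs and basophil or mast cells, 3 for 1 in neutrophils and 2 for 0 in plasma cells. TMM factors gave 0 for 1 in neutrophils and 1 for 0 in plasma cells, and the cause was not tested. Leiden clusters gave no value for plasmacytoid DCs, which had no cluster, and the stricter gate none where under 50 cells were left. No paired analysis was possible because each group is 1 library with the same replicate number, so no pair could be tested. Depth limits Asxl1, Jak2 and Ppm1d most, with at most 138, 138 and 53 UMIs in a profile and as few as 2, 5 and 2. Runx1 also had as few as 5 UMIs, in plasma cells, but up to 623 in another profile.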

Other observations

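Of 42 driver genes of clonal haematopoiesis, Tet2 among them, 0 of 40, 1 of 41, 4 of 38, 4 of 37 and 9 of 22 measured were at least 1.5-fold higher in Tet2 KO mono-biased GMPs, neutro-biased GMPs, HSPCs, monocytes and neutrophils, and 0, 0, 1, 0 and 0 lower, against 2.24%, 2.98%, 5.70%, 6.76% and 18.3% of all genes higher and 3.88%, 3.57%, 3.38%, 3.60% and 3.39% lower. The medians were −0.05, −0.01, 0.02, 0.06 and 0.48. Those higher include Tet2, the gene targeted in these mice, as the 1 of neutro-biased GMPs (0.72, 0.31 to 1.14) and as 1 of the 4 of HSPCs (0.75, −0.02 to 1.59) and of monocytes (0.74, 0.30 to 1.20). In HSPCs Idh1 was lower (−0.74, −1.25 to −0.22), and in monocytes Myd88 was higher (0.69, 0.35 to 1.04). TMM factors left 4 of the 9 in neutrophils, where Brcc3 was at 1.20 (0.48 to 1.96). Dnmt3a had intervals across 0 in all 5, from −0.28 (−0.59 to 0.04) in neutro-biased GMPs to 0.44 (−0.48 to 1.44) in monocytes.

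Of 12 cycling genes, 0 passed the fold in mono-biased GMPs, neutro-biased GMPs and neutrophils, where 6.11%, 6.55% and 21.7% of all genes did, with medians of 0.04, 0.13 and 0.24. In HSPCs 3 were lower (3.38% of all genes), with a median of −0.36 (−0.00 over all genes), among them Ccnb1 (56.9 to 29.8 CPM; −0.93, −1.30 to −0.56) and Ube2c (246 to 134 CPM; −0.87, −1.05 to −0.70), and in monocytes 1 (3.60% of all genes), Nusap1 (−0.64, −0.80 to −0.48), with a median of −0.25 (0.02 over all genes). Xist, expressed from the inactive X of females, was at 1029, 1058, 1200 and 1309 CPM in the 4 libraries, and Kdm5d, on the Y, at 0.0874, 0, 0 and 0 CPM.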
